A study of Homo sapiens with 4 samples.

Results

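The genes described here encode the proteins of the nuclear pore and its main transport receptors, in the human breast cancer cell line BT474, which carries an amplified ERBB2 gene. The members were taken by name from a list of 32 nucleoporins and transport factors; the rule uses gene names only, and the list was drawn up with earlier results of these data known. All 32 had at least 1 probe set annotated to them alone, among 19775 genes represented on the Affymetrix expression arrays. RNA was taken 24 h after the medium was replaced with medium that held either 0.5 mM AICAR or vehicle. AICAR is a nucleoside that cells phosphorylate to ZMP, an AMP mimic that activates the energy-sensing kinase AMPK. Both groups were the same line in regular DMEM, with 2 arrays each and 4 in all. The labels do not say whether the 2 arrays of a group stem from separate cultures, and p-values therefore cover only the array-to-array spread, which may be technical.

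The nuclear pore complex is a ring-shaped channel through the nuclear envelope. Y-shaped scaffold complexes form its outer rings, an inner ring holds the pore membrane and anchors the channel, and proteins rich in phenylalanine-glycine repeats fill the channel and form the selective barrier. Importins and exportins carry cargo through that barrier, driven by the GTPase Ran, and messenger RNA leaves by a separate route that ends at the cytoplasmic face. Dividing cells take their pores apart at mitosis and rebuild them afterwards, and growing cells also insert new pores in interphase.

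Levels are on the log2 scale, and each gene is represented by its probe set of highest mean. The 2 AICAR arrays correlated at r = 0.997 across probe sets, the 2 vehicle arrays also at 0.997, and arrays of different groups at 0.994 to 0.995; probe sets are not independent replicates. All 8 luminal epithelial markers fixed for these cells lay above the bound for dim genes (log2 6.11), as did 3 of 6 fibroblast, 2 of 4 endothelial and 3 of 4 blood cell markers. By construction 13842 of 19775 genes lie above this bound, so passing it does not show that a marker is expressed. Of these markers 1 luminal and 1 fibroblast gene fell and 0 rose, where 5.19% of all genes tested fell and 4.63% rose. Among 12 proliferation markers, 7 fell and 0 rose against the same shares, with differences from -0.86 to 0.13 and a median of -0.41. Their part in the results that follow was not tested.

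The comparison of AICAR with vehicle asked whether transcripts of the pore and its transport receptors changed. With AICAR 5 of the 32 members fell and 0 rose, at a limma adjusted p under 0.05. They were NUP35, KPNA2, NDC1, NUP205 and SEH1L. That is 15.6% of the members, while 5.19% of the 13842 genes tested fell and 4.63% rose, 9.82% in all. At an unadjusted p under 0.05, 12 members were lower and 0 higher, against 13.3% and 12.8% of all genes tested. The changes were small: the largest was 1.43-fold, and 0 members changed by 1.5-fold or more. In RNA of whole cultures, fewer cells of a kind and less RNA per cell cannot be told apart.

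Across all 32 members the median difference, AICAR minus vehicle, was -0.15 (log2), against 0.01 over all genes tested. Differences were negative for 26 members, or 81.2%, against 47.6% of all genes tested. Both AICAR arrays lay below both vehicle arrays for 20 members, where this held for 28.0% of all genes tested. For 3 members, NUP133, NUP43 and SEC13, both AICAR arrays lay above both vehicle arrays, where 28.5% of all genes did so. The groups overlapped for the other 9. As each member's deviation from its own mean, the median over members was -0.09 and -0.05 in AICAR replicates 1 and 2, and 0.08 and 0.06 in vehicle replicates 1 and 2, negative in both AICAR arrays and positive in both vehicle arrays.

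**Figure D1:**
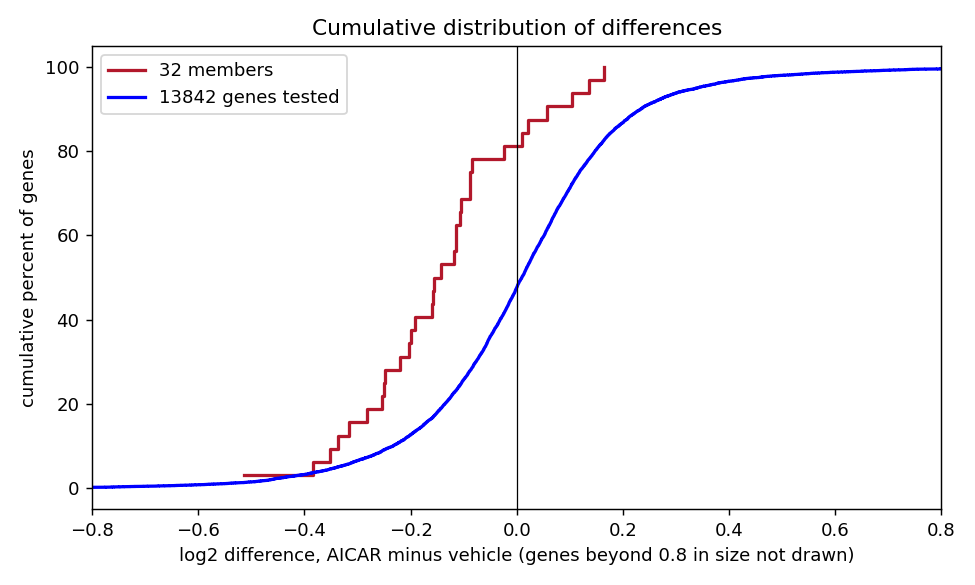
Cumulative percent of genes (vertical axis) against the log2 difference, AICAR minus vehicle (horizontal axis), for the 32 members in red and for the 13842 genes tested in blue. The curve of the members lies to the left, with its median at -0.15 against 0.01 for all genes tested.

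The count of 5 depended on single arrays, and fewer members passed in each fit without 1 array. Calls over all genes tested also became fewer in each of these fits, so this loss was not particular to the members. The median difference was -0.15 and -0.14 without the vehicle replicates in turn, and -0.11 and -0.19 without AICAR replicates 1 and 2.

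**Figure D2:**
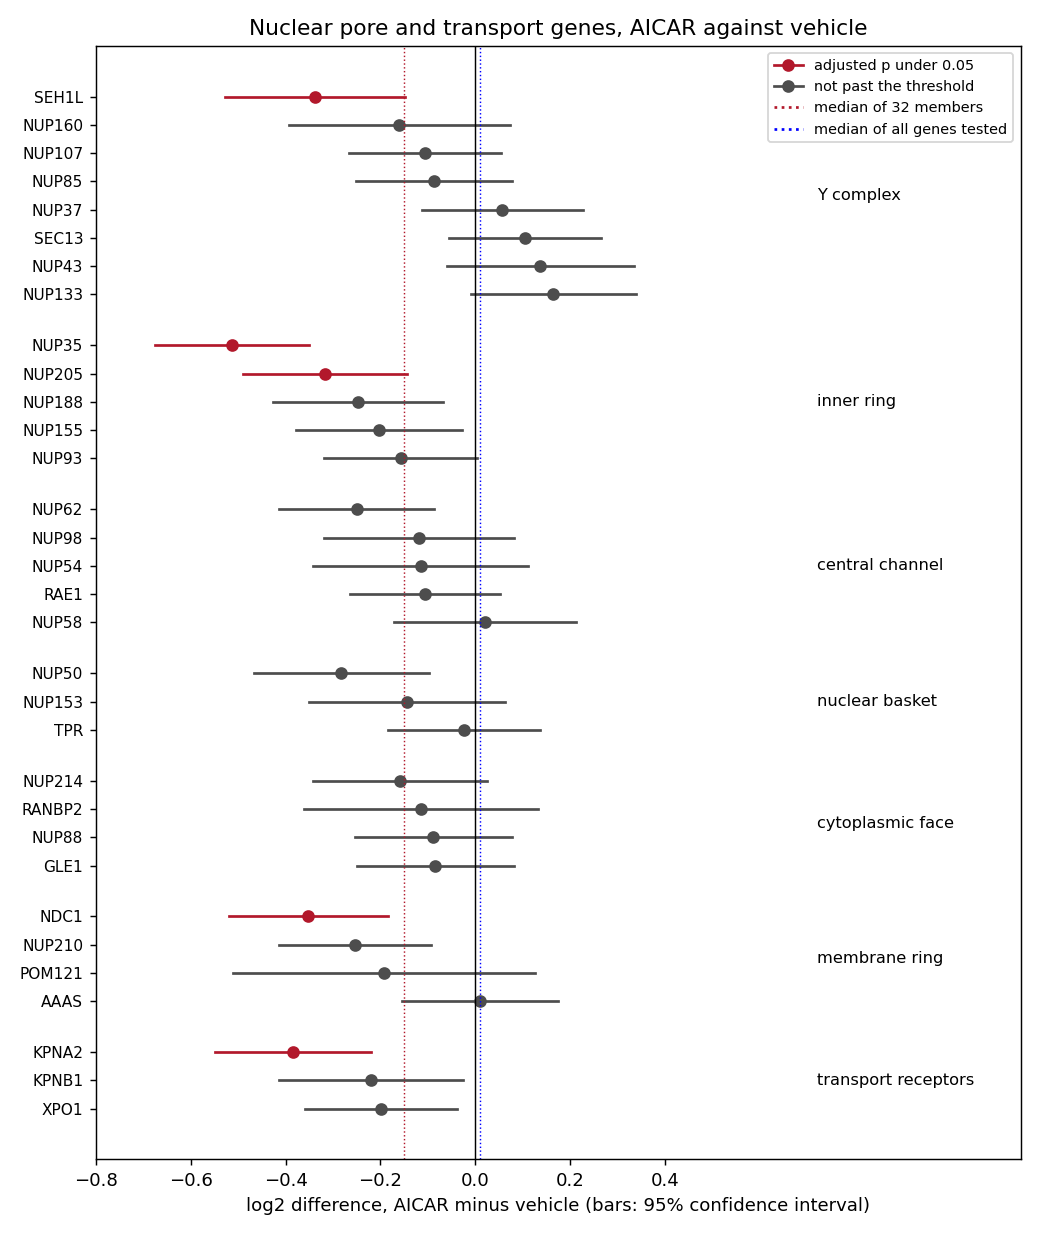
Log2 difference, AICAR minus vehicle (horizontal axis), of each of the 32 members, with 95% confidence intervals, grouped by place in the pore. The 5 genes in red had an adjusted p under 0.05, and dotted lines mark the medians of the members (-0.15) and of all genes tested (0.01).

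The Y complex, the outer-ring scaffold of the pore, was evenly divided in sign. Of its 8 members 1 fell and 0 rose, 4 differences were negative and 4 positive, and the median was -0.02. SEH1L, a propeller protein that also serves in the GATOR complex upstream of mTORC1, had values of 11.16 and 11.31 (log2) in AICAR cells, against 11.56 and 11.58 in vehicle cells. Both AICAR values lay below both vehicle values, and the 2 AICAR arrays were further apart than the 2 vehicle arrays. The difference was -0.34 (log2, SE 0.0789, limma adjusted p = 0.0479), 1.26-fold lower, and its other probe set differed by -0.36. SEH1L did not pass in any fit that left out 1 array: the adjusted p was 0.203 and 0.195 without vehicle replicates 1 and 2, and 0.117 and 0.0506 without AICAR replicates 1 and 2. It also did not pass without the filter on dim genes (adjusted p = 0.0916).

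SEC13, the partner propeller that the Y complex shares with the COPII coat of secretory vesicles, had a log2 difference of 0.11 (95% confidence interval -0.06 to 0.27, given likewise for others, with limma adjusted p = 0.371). The peripheral Y-complex proteins NUP37 and NUP43 differed by 0.06 and 0.14. NUP133, at the foot of the Y, differed by 0.16 (log2, -0.01 to 0.34, adjusted p = 0.213). Its stem partner NUP107 differed by -0.11, and the arm proteins NUP160 and NUP85 by -0.16 and -0.09. None of these 7 members passed the threshold (limma), and their intervals all include 0.

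The inner ring lies against the pore membrane and holds the channel proteins in place. All 5 inner ring members had negative differences with their chosen probe sets, from -0.51 to -0.16 (log2) with a median of -0.25. In all 5 both AICAR values lay below both vehicle values, where this held for 28.0% of all genes tested. Of these, 2 fell, NUP35 and NUP205. NUP35, which binds membranes and links the ring to the transmembrane protein NDC1, had values of 9.68 and 9.74 (log2) in AICAR cells, against 10.23 and 10.22 in vehicle cells. The gap between the groups was several times the spread within either. The difference was -0.51 (log2, SE 0.0675, limma adjusted p = 0.0120), 1.43-fold lower and the largest among the 32 members. NUP35 has 1 probe set here. Its adjusted p was 0.0857 and 0.0782 without vehicle replicates 1 and 2, and 0.0307 and 0.0340 without AICAR replicates 1 and 2.

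NUP205, a large scaffold protein of the inner ring, had values of 10.69 and 10.76 (log2) in AICAR cells, against 11.08 and 11.00 in vehicle cells. The groups did not overlap. The difference was -0.32 (log2, SE 0.0721, limma adjusted p = 0.0450), 1.25-fold lower, and its other probe set differed by -0.30. The adjusted p was 0.255 and 0.143 without vehicle replicates 1 and 2, 0.111 and 0.0763 without AICAR replicates 1 and 2, 0.0890 without the filter on dim genes and 0.0514 after quantile normalization. NUP188, a structural relative of NUP205, differed by -0.25 (log2, -0.43 to -0.07, adjusted p = 0.0940). Its dimmer probe sets, at mean levels of 6.73 and 6.07, differed by -0.12 and 0.09. The mean of all NUP188 probe sets differed by -0.09 (limma adjusted p = 0.454). NUP155, which bridges the inner ring to the membrane, differed by -0.20 (-0.38 to -0.03, adjusted p = 0.141). NUP93, the linker that recruits the channel trimer, differed by -0.16 (-0.32 to 0.00486, adjusted p = 0.203). The other probe set of NUP93, at a mean level of 3.9, differed by 0.08, and the mean of both by -0.04 (adjusted p = 0.789).

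The membrane ring comprises the proteins that span or dock at the pore membrane. Of its 4 members 1 fell and 0 rose, with a median of -0.22 (log2). NDC1, a transmembrane nucleoporin needed for pore assembly, had values of 10.35 and 10.41 (log2) in AICAR cells, against 10.75 and 10.71 in vehicle cells. Both groups were tight and did not overlap. The difference was -0.35 (log2, SE 0.0693, limma adjusted p = 0.0299), 1.28-fold lower. Its other probe set, at a lower level, differed by only -0.07, and with the mean of both NDC1 did not pass (difference -0.21, adjusted p = 0.152). It also did not pass without vehicle replicate 1 or 2 (adjusted p = 0.184 and 0.132), without AICAR replicate 1 or 2 (0.0773 and 0.0580), or without the filter on dim genes (0.0635).

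NUP210, a single-pass membrane nucleoporin, differed by -0.25 (log2, -0.41 to -0.09, adjusted p = 0.0643). Each of its 5 probe sets had a negative difference, from -0.47 to -0.05. POM121 had values of 7.04 and 7.39 in AICAR cells, against 7.52 and 7.30 in vehicle cells, which overlap (difference -0.19, adjusted p = 0.409). POM121 has a near-identical relative, POM121C, and probes for either may read both. AAAS (ALADIN), which docks on NDC1, differed by 0.01 (log2, -0.15 to 0.17, adjusted p = 0.944).

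Importins and exportins are the mobile carriers of the transport system, and 3 of them were members. All 3 had both AICAR values below both vehicle values, where this held for 28.0% of all genes tested. Their differences ran from -0.38 to -0.20 (log2), and 1 fell. KPNA2, an importin-alpha adaptor that binds nuclear localization signals and is abundant in proliferating cells, had values of 12.85 and 12.84 (log2) in AICAR cells, against 13.26 and 13.20 in vehicle cells. With this probe set the AICAR arrays differed by 0.01 and both lay well below the vehicle arrays. The difference was -0.38 (log2, SE 0.0679, limma adjusted p = 0.0233), 1.31-fold lower. The other probe set of KPNA2 was nearly as bright (mean level 12.98 against 13.04) and its AICAR arrays lay further apart. It had values of 12.69 and 12.99 in AICAR cells, against 13.06 and 13.20 in vehicle cells. That difference was -0.29 (limma adjusted p over all probe sets = 0.309). With the chosen probe set, KPNA2 did not pass in any fit that left out 1 array. Its difference was -0.35 and -0.42 without vehicle replicates 1 and 2, and -0.39 and -0.38 without AICAR replicates 1 and 2.

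KPNB1, the importin-beta that carries the KPNA2-cargo complex through the pore, differed by -0.22 (log2, -0.41 to -0.03, adjusted p = 0.147). Its 6 probe sets ranged from -0.40 to 0.07 and 5 were negative. XPO1 (CRM1), the main exporter of proteins with leucine-rich export signals, differed by -0.20 (log2, -0.36 to -0.04, adjusted p = 0.122). A dimmer probe set of XPO1 had values of 6.94 and 7.34 (log2) in AICAR cells, against 8.10 and 7.63 in vehicle cells. That difference, -0.73, was the largest of any member probe set, and its adjusted p over all probe sets was 0.115. The remaining XPO1 probe set differed by -0.02.

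**Figure D3:**
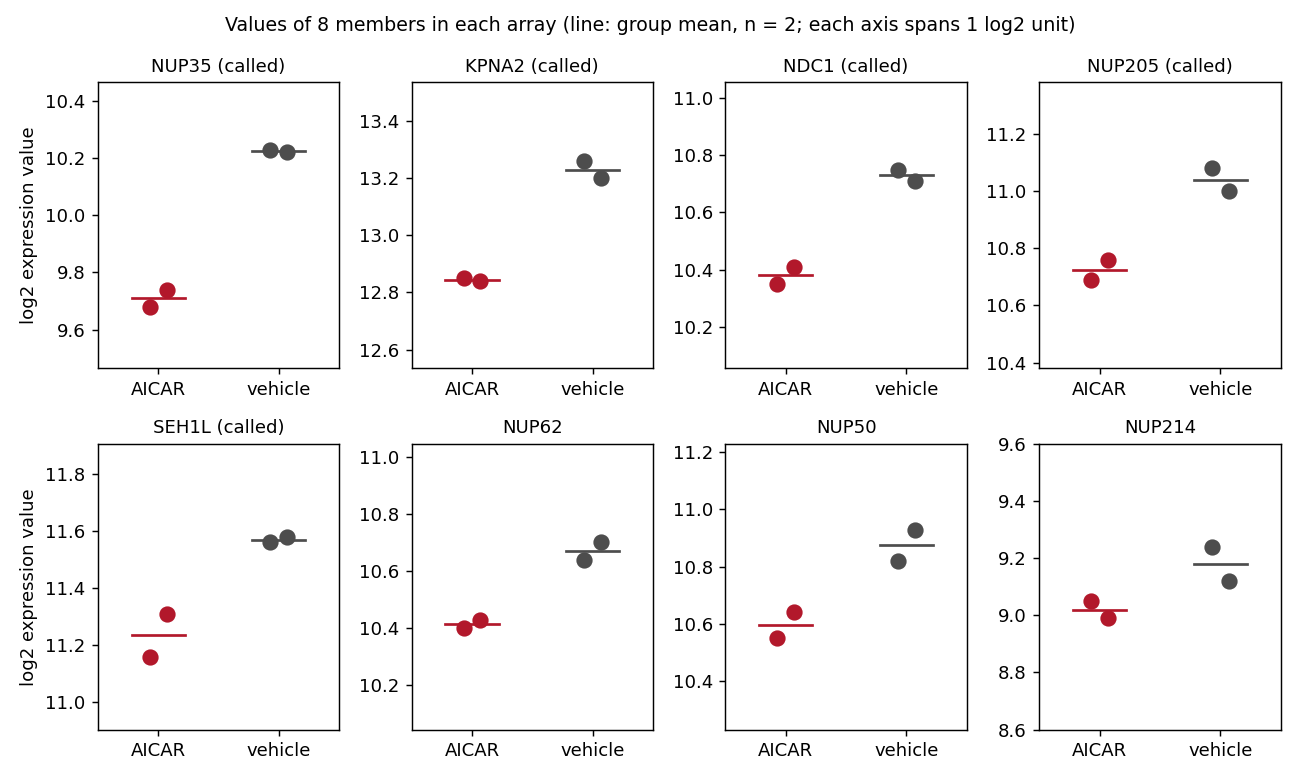
Log2 expression values (vertical axis) of 8 members in each array, AICAR in red on the left of each panel and vehicle in grey on the right, with lines at the means of 2 arrays. The 5 members marked as called and the member with the largest difference in each group without a call are shown. In all 8 the AICAR points lie below the vehicle points, which follows in part from this choice.

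Members of the channel, the basket and the cytoplasmic face had 0 calls in either direction (limma). At an unadjusted p under 0.05, 1 channel and 1 basket member were lower and 0 cytoplasmic members were. In the central channel 4 of 5 differences were negative, with a median of -0.11 (log2). NUP62, the core of the repeat-bearing channel trimer, had values of 10.40 and 10.43 in AICAR cells, against 10.64 and 10.70 in vehicle cells. The groups did not overlap, and the difference was -0.25 (log2, SE 0.0679, adjusted p = 0.0708). The other trimer subunits, NUP54 and NUP58, differed by -0.11 and 0.02 and their groups overlapped. The other probe sets were lower for both, at -0.46 and -0.28 for NUP54 and at -0.48 to -0.22 for NUP58. Those of NUP54 had mean levels of 3.48 and 4.43 (log2), under the bound for dim genes, against 11.21 for the chosen one. Those of NUP58 had mean levels from 5.75 to 7.75, against 8.84 for the chosen one. Averaged over probe sets, the difference was -0.28 for NUP54 (adjusted p = 0.0630) and turned to -0.25 for NUP58 (adjusted p = 0.160). NUP98, a repeat protein central to the permeability barrier, differed by -0.12, with negative differences in each of 3 probe sets. RAE1, the messenger RNA export factor that binds NUP98, differed by -0.11, and its 3 probe sets lay between -0.14 and -0.11.

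The nuclear basket projects into the nucleoplasm. NUP50, which helps release cargo from importin-alpha, had values of 10.55 and 10.64 (log2) in AICAR cells, against 10.82 and 10.93 in vehicle cells. The groups did not overlap, and the difference was -0.28 (log2, SE 0.0763, adjusted p = 0.0696). Another of its 6 probe sets differed by -0.48 (adjusted p over all probe sets = 0.0588), and 5 of the 6 were negative. NUP153, which anchors the basket, differed by -0.14 (adjusted p = 0.344). Dimmer probe sets of NUP153, at mean levels of 6.32 and 4.65, differed by 0.20 and -0.11 (log2). Averaged over probe sets, NUP153 differed by -0.02 (limma adjusted p = 0.908). TPR, the filament of the basket, differed by -0.02 (log2, -0.18 to 0.14) with its brightest probe set. Its other 4 probe sets differed by -0.37 to -0.25, so the chosen probe set was the one closest to 0. The other 4 had mean levels from 4.29 to 9.15 (log2), against 10.26 for the chosen one.

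At the cytoplasmic face all 4 differences were negative but small with the chosen probe sets, from -0.16 to -0.08 (log2). Negative differences were found for 47.6% of all genes tested. Averaged over probe sets, the 4 differences ran from -0.05 to -0.02 and did not pass (limma). NUP214, where exporting complexes dock, had values of 9.05 and 8.99 in AICAR cells, against 9.24 and 9.12 in vehicle cells. The groups did not overlap, the difference was -0.16 (SE 0.0759, adjusted p = 0.247), and its other 2 probe sets differed by 0.03 and 0.08. Its partner NUP88 differed by -0.09 (log2), and GLE1, the activator of the helicase that strips proteins from exported messenger RNA, by -0.08. RANBP2, the SUMO ligase of the cytoplasmic filaments, differed by -0.11 and its groups overlapped. RANBP2 has several near-identical relatives, the RGPD genes, and 1 of its probe sets spread over 9.48 and 10.64 in AICAR cells, against 9.88 and 9.73 in vehicle cells.

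The 32 members had 85 probe sets, of which 68, or 80.0%, had negative differences, against 47.4% of the 54613 probe sets of the array other than controls. Their median difference was -0.14 (log2), against 0.01. The 53 probe sets that were not chosen had a median of -0.14, and 42 of them were negative. Of 25 members with several probe sets, 15 had the same sign in all and 10 had mixed signs. When every probe set was tested separately, 1 of the 85 fell, that of NUP35 (adjusted p = 0.0454), and 0 rose. That is 1.18%, where 0.888% of all probe sets fell and 0.599% rose. A further 3 probe sets name a member together with another gene and were left out.

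**Figure D4:**
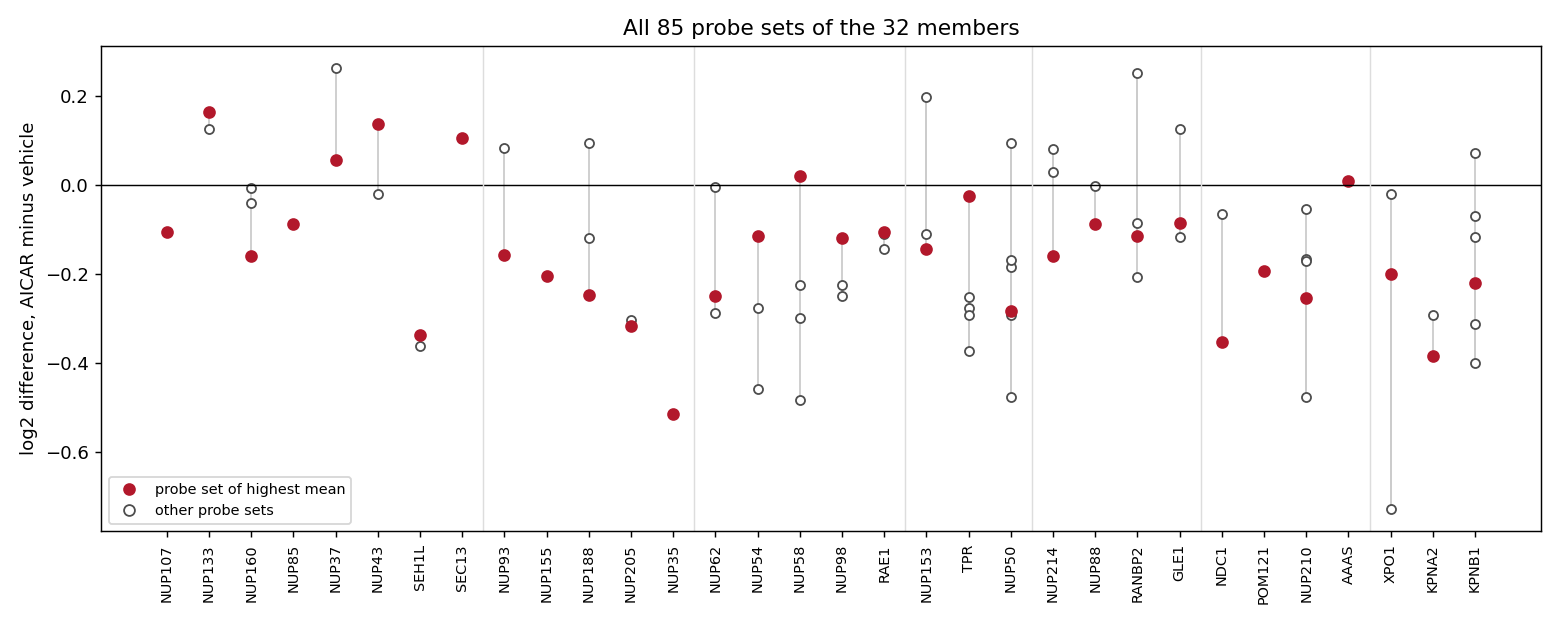
Log2 difference, AICAR minus vehicle (vertical axis), for each of the 85 probe sets of the 32 members (horizontal axis), with the probe set of highest mean filled in red and the others open. NUP35 has 1 probe set, at -0.51, and the lowest point is a dim probe set of XPO1 at -0.73.

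The sequences upstream of the 5 genes that fell are shown as a description. Whether these genes are regulated together was not tested. Each is the 250 bases before the annotated start, from RefSeq, 5′ to 3′ on the gene's strand (GRCh38.p14). Capitals mark matches to TTTGAA (the core of the cell cycle genes homology region, or CHR, of many mitotic genes), CCAAT, or CCGGAAG (an ETS factor site), on either strand. NUP35 lies at chr2:183124193-183124442 (+), KPNA2 at chr17:68035485-68035734 (+), NDC1 at chr1:53838297-53838546 (-), NUP205 at chr7:135557667-135557916 (+) and SEH1L at chr18:12947761-12948010 (+).
NUP35: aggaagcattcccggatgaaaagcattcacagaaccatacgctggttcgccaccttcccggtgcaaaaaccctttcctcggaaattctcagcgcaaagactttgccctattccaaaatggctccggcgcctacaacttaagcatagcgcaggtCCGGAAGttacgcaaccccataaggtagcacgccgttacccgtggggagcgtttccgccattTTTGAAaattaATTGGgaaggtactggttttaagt
KPNA2: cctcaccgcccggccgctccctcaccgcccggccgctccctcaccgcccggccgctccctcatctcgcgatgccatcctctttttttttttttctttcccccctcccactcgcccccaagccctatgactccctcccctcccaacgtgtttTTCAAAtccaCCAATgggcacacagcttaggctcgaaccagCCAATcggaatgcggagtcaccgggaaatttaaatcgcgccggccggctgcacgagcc
NDC1: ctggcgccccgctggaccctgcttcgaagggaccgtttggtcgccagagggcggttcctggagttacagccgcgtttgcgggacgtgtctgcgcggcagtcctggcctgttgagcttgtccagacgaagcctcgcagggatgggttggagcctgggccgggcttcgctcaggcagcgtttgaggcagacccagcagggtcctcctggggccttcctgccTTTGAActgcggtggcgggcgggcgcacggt
NUP205: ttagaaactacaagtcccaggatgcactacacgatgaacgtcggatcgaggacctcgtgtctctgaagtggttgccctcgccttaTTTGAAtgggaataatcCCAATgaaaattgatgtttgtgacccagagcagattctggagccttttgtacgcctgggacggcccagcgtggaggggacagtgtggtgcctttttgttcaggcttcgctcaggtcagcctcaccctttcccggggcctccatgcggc
SEH1L: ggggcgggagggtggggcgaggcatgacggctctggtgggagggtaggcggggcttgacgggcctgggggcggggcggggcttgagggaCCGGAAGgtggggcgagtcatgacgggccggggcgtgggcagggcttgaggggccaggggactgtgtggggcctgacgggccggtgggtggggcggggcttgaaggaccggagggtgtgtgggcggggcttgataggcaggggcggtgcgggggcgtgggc

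TTTGAA occurred upstream of NUP35, KPNA2, NDC1 and NUP205, and not in this window of SEH1L. It starts 35 bases before the annotated start of NUP35, 99 before that of KPNA2, 31 before that of NDC1 and 165 before that of NUP205. A CCAAT match lies just downstream of it in 3 of these genes, starting at 24 bases in NUP35, 89 in KPNA2 and 148 in NUP205. Of the 29 members with a promoter sequence, 7, or 24.1%, held TTTGAA, against 13.6% of 27305 promoters of the same length. Those 27305 include genes that were not tested or not on the arrays, so this and the shares below are not against a matched set. The members held TTTGAA also in NUP37, NUP98 and NUP153, which did not pass the threshold. CCAAT was found in 37.9% of the members' windows and 33.0% of all, and CCGGAAG in 41.4% and 8.82%. GCATGCG, the core of an NRF1 site, was found in 10.3% and 3.57%, and the E-box CACGTG in 6.90% and 6.49%. TATAAA was in 0 of 29 and 11.1%, and AAGGTCA, the core of sites bound by ERR receptors, in 0 of 29 and 3.46%. No motif overlapped another in the printed windows. The members' windows had a median GC content of 62.8%, against 58.0% for all of the table; its part in these shares was not tested. A match is a description of letters, and binding was not measured.

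Around the pore, 67 further genes of nuclear transport and the envelope were listed. Probe sets of a single symbol covered 61, and 60 exceeded the bound for dim genes. With AICAR 11 of the 60, or 18.3%, fell and 1 rose, where 5.19% of all genes tested fell and 4.63% rose. The median difference of the 60 was -0.14 (log2), against 0.01 over all genes tested. The same shares over all genes are the background for the counts of the single lists below. The 6 not analysed here were SENP2, KPNA7, NUTF2, NXF1, DDX39B and THOC3. Fewer of these 12 calls passed in each fit without 1 array, and calls over all genes tested also became fewer in each.

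Among 5 other nucleoporins tested, 2 fell and 1 rose. AHCTF1 (ELYS), which brings the Y complex to chromatin when pores are rebuilt after mitosis, had values of 10.89 and 11.03 (log2) in AICAR cells, against 11.35 and 11.27 in vehicle cells (difference -0.35, limma adjusted p = 0.0430). Averaged over its 2 probe sets, AHCTF1 did not pass (adjusted p = 0.0769). POM121C fell by 0.31 (log2, adjusted p = 0.0360). NUP42, which works beside GLE1 at the cytoplasmic face, was the only gene of these lists to rise, with values of 9.07 and 9.09 in AICAR cells, against 8.67 and 8.74 in vehicle cells (difference 0.38, adjusted p = 0.0254).

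Of 20 other karyopherins tested 2 fell and 0 rose, with a median of -0.14 (log2). KPNA1, another importin-alpha, had values of 9.14 and 9.19 in AICAR cells, against 9.69 and 9.53 in vehicle cells (difference -0.45, adjusted p = 0.0241). IPO9, an importer of histones and ribosomal proteins, had values of 8.99 and 9.04 in AICAR cells, against 9.43 and 9.40 in vehicle cells (difference -0.40, adjusted p = 0.0214). In the Ran cycle 1 of 6 fell and 0 rose: RANBP1, which helps Ran hydrolyse GTP in the cytoplasm, had values of 12.36 and 12.33 in AICAR cells, against 12.74 and 12.74 in vehicle cells (difference -0.39, adjusted p = 0.0213). With the mean of all their probe sets these differences shrank to -0.21 for KPNA1, -0.11 for IPO9 and -0.10 for RANBP1, and did not pass (adjusted p = 0.0955, 0.303 and 0.424).

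Of 14 messenger RNA export genes 2 fell and 0 rose, with a median of -0.08 (log2). DDX19B, the helicase that GLE1 activates, had values of 6.64 and 6.58 in AICAR cells, against 7.29 and 7.01 in vehicle cells (difference -0.54, limma adjusted p = 0.0277), at a level close to the bound for dim genes. THOC2, a scaffold of the TREX complex that loads export factors, fell by 0.43 (adjusted p = 0.0334), and with the mean of its 4 probe sets differed by -0.27 (adjusted p = 0.0651). Of 15 lamina and envelope genes 4 fell and 0 rose, with a median of -0.15. LMNB1, a B-type lamin, had values of 8.98 and 8.90 in AICAR cells, against 9.43 and 9.47 in vehicle cells (difference -0.51, adjusted p = 0.0135). The other B-type lamin LMNB2 fell by 0.42 (adjusted p = 0.0232), TMPO (LAP2), which binds lamins and chromatin, by 0.40 (adjusted p = 0.0200; its 5 probe sets ranged from -0.76 to 0.18), and SUN2, which ties the lamina to the cytoskeleton, by 0.39 (adjusted p = 0.0254).

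Tested separately, 6 of the 170 probe sets of these further genes fell and 0 rose, in 4 genes, against the 0.888% and 0.599% of all probe sets given above. For ENY2, a subunit of the TREX-2 export complex and of the SAGA deubiquitinase module, the brightest probe set differed by 0.05 (log2) and did not pass. Its other 2 probe sets fell. The dimmer had values of 6.54 and 6.59 in AICAR cells, against 7.76 and 7.75 in vehicle cells, a difference of -1.19 (adjusted p over all probe sets = 0.00759). The other differed by -0.69 (adjusted p = 0.0268). KPNA4, an importin-alpha, differed by 0.07 with its brightest probe set, while 1 of its 5 probe sets fell by 0.67 (adjusted p = 0.0356). TMPO had 2 probe sets that fell, by 0.76 and 0.59 (adjusted p = 0.0217 and 0.0496), and LMNB1 its only one. What each probe set of a gene reads was not analysed here.

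**Figure D5:**
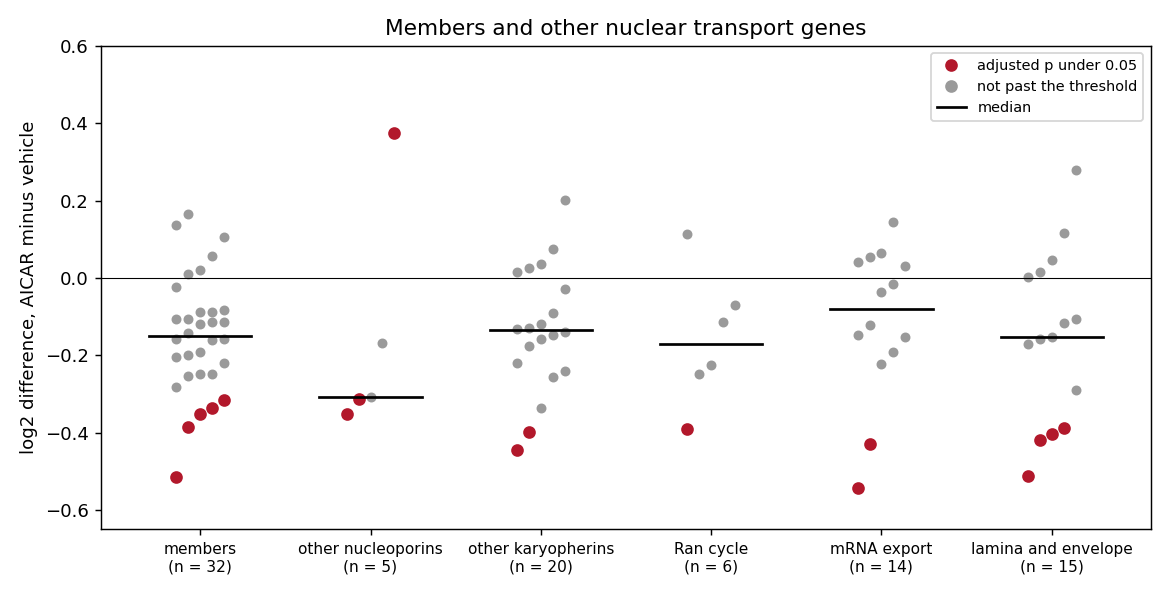
Log2 difference, AICAR minus vehicle (vertical axis), of the 32 members and of the genes tested in 5 other lists (horizontal axis); red points had an adjusted p under 0.05, grey points did not, and bars are medians. The medians of the 6 groups lie between -0.31 and -0.08, and the red point above 0 is NUP42.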

How the data were processed

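Total RNA of 4 samples (2 AICAR, 2 vehicle) was labelled with biotin by the standard Affymetrix protocol, per the labels. The authors deposited log2 expression values per probe set, made with Affymetrix Expression Console per the submitters' processing notes; its version and its summarization and background steps are not given in the sources used. Values, from 2.95 to 15.3, were used as given. For arrays, their number limits the precision; the median SE of a log2 difference was 0.0772.

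Of 54675 probe sets, 41097 had 1 gene symbol and 1801 several in the platform annotation; symbols were updated through Entrez IDs with RefSeq (GRCh38.p14) for 41043. The probe set of highest mean stood for each of 19775 genes, and genes with a mean under the 30th percentile (log2 6.11) were left out, which left 13842, all 32 members among them. The test was limma 3.58.1 (lmFit, then eBayes without a trend) in R 4.3.3, with Benjamini-Hochberg adjustment over all genes tested, two-sided, at 0.05. "Rose" and "fell" refer to this test. An exact permutation test of 2 against 2 arrays cannot give a p below 0.333 and was not used. The fit was tested on simulated data. Alternatives changed the dim filter, the normalization, the variance model, the probe set rule, the threshold, the block or the arrays used.

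The members, lists and tests were chosen with earlier results of these data known. All members are named, with values in all 4 arrays for called members and for the member with the largest difference in each group without a call; other lists give up to 4 called genes. Other values named, such as those of XPO1, POM121, RANBP2, ENY2 and KPNA4, and the promoter motifs were chosen after values were seen. A planned count of repeats in the protein sequences was not made, and protein sequences were not used here. Deviations of same-numbered arrays from their group means correlated at -0.07, and the labels state no shared batch, so the arrays were not treated as pairs.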

Additional observations from a re-analysis of the deposited data

How the results depend on the processing

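The 26 negative and 6 positive member differences kept their sign under the settings tried, with these exceptions. NUP58 was -0.246 (log2) with the mean of all probe sets, and -0.0582 to 0.0995 in fits without 1 array, negative without vehicle replicate 2 and without AICAR replicate 2. TPR was 0.0107 after quantile normalization. RANBP2 was -0.244 to 0.0168 without 1 array, positive without AICAR replicate 1. AAAS was -0.0017 with median centring and -0.0196 to 0.0401 without 1 array, negative without vehicle replicate 1 and without AICAR replicate 1. None of these 4 passed in any setting. The median of the members was -0.11 after quantile normalization and -0.19 to -0.11 in fits without 1 array, and -0.16 to -0.14 otherwise.

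Counts moved more, and the cause was not tested beyond what each setting changes by construction. No member rose in any setting. Members that fell numbered 5, but 2 without the dim filter, 8 with a filter at the 50th percentile, 11 with a trend and robust variances, 1 (chosen probe sets) with all probe sets tested separately, 9 at an adjusted p under 0.1, 0 with a bound of 1.5-fold and 0 to 1 without 1 array. With the replicate number as a block 3 fell, NUP35, NDC1 and KPNA2, so the block moved the count from 5 to 3. The arrays share only a number, and this says nothing of a weaker effect. Among the other transport genes 11 fell, but 6 without the dim filter, 20 with a trend and robust variances, 1 (chosen probe sets) with all probe sets tested separately, 0 with a bound of 1.5-fold and 0 to 4 without 1 array. In those lists 1 rose, but 0 without the dim filter, 2 with a filter at the 50th percentile, 2 after quantile normalization, 3 with a trend and robust variances, 0 with all probe sets, 2 at an adjusted p under 0.1, 0 with a bound of 1.5-fold and 0 to 0 without 1 array. Over all genes 718 fell and 641 rose, but 355 and 368 without the dim filter, 1359 and 1107 with a trend and robust variances, 146 and 188 (chosen probe sets) with all probe sets, 1173 and 1093 at an adjusted p under 0.1, and 120 and 179 with a bound of 1.5-fold. Without 1 array 30 to 432 fell and 69 to 553 rose. Quantile normalization turned the split to 624 lower and 854 higher. With 1 array left in a group, its spread is assumed to match that of the other group.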
